A study of Mus musculus with 36 samples.

Results

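Metallothioneins and the genes around them that handle or sense zinc were followed through 3 kinds of mouse bone cell. The 5 genes, taken by symbol from the 30205 genes of the data, were the metallothioneins Mt1, Mt2 and Mt3, the zinc exporter Slc30a1 and the zinc-sensing transcription factor Mtf1. Mt3 was selected on its high level in wild-type osteoclasts, seen in these same data, so its osteoclast values are given as a description with no test. The libraries came from cells of wild-type control (WT) mice and of mice lacking the microRNA gene Mir324 (null), 20 weeks old. Marrow first spent 3 days in the growth factor M-CSF (100 ng/mL). The resulting bone marrow macrophages (BMM) were then kept for 5 days with M-CSF at 30 ng/mL alone, or with M-CSF at 30 ng/mL and the osteoclast-inducing cytokine RANK-L at 50 ng/mL, which gave the cultures labelled osteoclasts (OC). Osteoblasts (OB) grew out of collagenase-treated bone chips over about 6 weeks and then spent 18 days in osteogenic medium with β-glycerophosphate and ascorbic acid. There were 36 libraries, 6 in each group. The labels name no other allele or agent for any group. Genotypes are as labelled, and no check against Mir324 transcripts was made here. All cultures were primary, so each value is a mean over whatever cells the dish held.

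Metallothioneins are small proteins rich in cysteine that bind zinc and copper. When free zinc rises, the zinc-finger factor MTF1 binds short elements, called metal response elements, in the promoters of Mt1, Mt2 and Slc30a1 and switches them on, so that zinc is both bound and pumped out of the cell. Hypoxia and glucocorticoids can raise Mt1 and Mt2 as well. Mt3 is best known from the brain and responds little to zinc. Osteoblasts need zinc for alkaline phosphatase, and bone mineral stores the metal.

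The libraries held between 14118972 and 26347581 estimated counts. The genes are given in 2 measures. CPM is the summed count of a gene scaled to library size (TMM) and serves for tests and for comparing libraries. TPM, deposited by the submitters, is also divided by transcript length and serves for comparing levels between genes. Summed osteoclast markers (10 genes) were at 30400 to 32600 CPM in WT OC and at 424 to 773 CPM in null OC, and all 10 were lower in null OC. The null OC libraries therefore carried the label of a culture treated with RANK-L but few osteoclast transcripts, with the calcitonin receptor gene Calcr at 0. Macrophage markers (10 genes) summed to 6040 to 6420 CPM in WT OC and 13100 to 18200 CPM in null OC. Osteoblast markers (10 genes) summed to 54000 to 78100 CPM in WT OB and 96300 to 116000 CPM in null OB. The same libraries held macrophage markers, at 5680 to 6660 CPM in WT OB and 3650 to 4460 CPM in null OB, and osteoclast markers, at 4130 to 5270 CPM and 4980 to 7710 CPM. In BMM the macrophage markers summed to 16000 to 18100 CPM in WT and 16800 to 18900 CPM in null. Taken singly, 8 of the 10 were lower and 1 higher in null BMM (edgeR, adjusted p under 0.05), with a median log2 difference of -0.71. Over all genes 25.4% were lower and 27.0% higher there. Osteoclast markers summed to 220 to 245 CPM in WT BMM and 307 to 393 CPM in null BMM. Of 7 of them tested 2 were higher and 4 lower in null BMM (median -0.79). Low sums of other markers did not overlap there. Adipocyte markers (8 genes) were at 474 to 1000 CPM in WT and 209 to 316 CPM in null. Of them Cfd, Cidec, Lep and Plin1 were at 0 in both. Adipoq was also at 0 in null, where only Lpl, Fabp4 and Pparg were detected. Osteoblast markers were at 10.6 to 28.9 and 53.9 to 127 CPM, with Alpl, Bglap2 and Sp7 at 0 in WT. Neutrophil markers (10 genes) were at 2.71 to 4.32 and 8.43 to 21.2 CPM. Of them Elane, Retnlg and S100a9 were at 0 in both, Ly6g in WT and Ltf in null. The part of these marker differences in the genotype differences given for BMM and OB was not tested. The labels do not say whether the libraries of a group came from separate mice, so p-values measure the spread between these libraries. They name no batch either, and a batch shared by a genotype and the genotype itself cannot be told apart.

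The 3 metallothionein genes lie side by side on the plus strand of chromosome 8 (GRCm38, GENCODE M21), Mt3 from 94152607 to 94154146, Mt2 from 94172664 to 94173568 and Mt1 from 94179082 to 94180327. The remaining gene of the cluster, Mt4, lies from 94137197 to 94139031 and had 0 counts in all 36 libraries, which is not detectable at this depth. The whole cluster spans 43131 bases, with 5513 bases between Mt2 and Mt1. Slc30a1 is on chromosome 1 from 191906767 to 191913247 and Mtf1 on chromosome 4 from 124802104 to 124849800, both on the plus strand. To show where MTF1 could bind, promoter windows from 250 bases before to 50 bases after the start site were taken from RefSeq (GRCm38.p6, plus strand, 5′ to 3′). They were searched on both strands for the core of the metal response element, written TGCACNC or TGCGCNC. Capitals mark the matches, and a match on the minus strand reads in reverse complement.

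Mt1: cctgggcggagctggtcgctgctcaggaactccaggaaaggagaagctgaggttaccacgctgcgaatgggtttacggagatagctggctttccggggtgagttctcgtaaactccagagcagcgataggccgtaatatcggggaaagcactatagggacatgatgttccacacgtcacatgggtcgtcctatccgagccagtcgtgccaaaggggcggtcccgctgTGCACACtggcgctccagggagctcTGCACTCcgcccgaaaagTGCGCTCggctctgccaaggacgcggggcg

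Mt2: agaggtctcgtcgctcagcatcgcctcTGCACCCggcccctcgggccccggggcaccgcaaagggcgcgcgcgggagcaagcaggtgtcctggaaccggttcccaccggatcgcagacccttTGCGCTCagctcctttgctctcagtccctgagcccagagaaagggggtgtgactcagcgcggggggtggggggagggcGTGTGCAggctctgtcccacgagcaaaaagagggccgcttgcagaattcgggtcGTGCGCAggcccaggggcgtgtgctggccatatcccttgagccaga

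Mt3: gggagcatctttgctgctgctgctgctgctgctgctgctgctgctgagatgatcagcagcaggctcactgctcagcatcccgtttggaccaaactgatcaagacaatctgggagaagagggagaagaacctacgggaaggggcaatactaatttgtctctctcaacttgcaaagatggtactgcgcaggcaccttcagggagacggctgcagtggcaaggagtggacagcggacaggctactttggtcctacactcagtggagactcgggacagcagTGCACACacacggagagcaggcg

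Slc30a1: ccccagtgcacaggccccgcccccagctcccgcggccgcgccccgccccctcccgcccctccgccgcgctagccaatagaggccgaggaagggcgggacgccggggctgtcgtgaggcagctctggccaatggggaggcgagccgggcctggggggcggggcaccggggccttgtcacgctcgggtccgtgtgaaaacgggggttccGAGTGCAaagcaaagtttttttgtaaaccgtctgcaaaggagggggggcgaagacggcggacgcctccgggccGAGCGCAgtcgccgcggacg

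These windows are chr8:94178839-94179138 for Mt1, chr8:94172368-94172667 for Mt2, chr8:94152357-94152656 for Mt3 and chr1:191906531-191906830 for Slc30a1. Mt1 held 3 matches, all on the plus strand and all within 30 bases of the start site. Mt2 held 4 matches, with 2 on each strand. Slc30a1 held 2 matches, both on the minus strand, and Mt3 held 1, which lies 30 bases after its start. The window of Mtf1 held 0. Among all 32851 promoter windows of that length, 25.7% had at least 1 match, 7.11% at least 2, 1.97% at least 3 and 0.517% at least 4. A match to these letters is a description of the sequence and does not show that the factor binds there.

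Mt1 was the most abundant of the 5 genes by TPM in every group, and it was highest in osteoblasts. Its TPM averaged 615 ± 20.5 (SD, n = 6) in WT BMM and 1094 ± 76.7 in WT OC, against 2765 ± 460. in WT OB In the null cells it averaged 472 ± 83.8 TPM in BMM, 456 ± 60.1 TPM in OC and 2227 ± 1390 TPM in OB. Ordered by mean TPM, the groups ran WT OB, null OB, WT OC, WT BMM, null BMM and null OC. The TPM ranges of WT OC and WT BMM, and of WT BMM and null BMM, did not overlap. In CPM the ranges of WT BMM (139 to 164) and null BMM (87.9 to 169) did overlap. How many of all genes were separated between groups was not counted. The null OB libraries spread from 455 to 4034 TPM, a range that took in all libraries of WT OB, WT OC and WT BMM.

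Mt2 followed the same order at a lower level, except that the 2 lowest groups changed places. It averaged 41.5 ± 7.0 TPM in WT BMM and 67.3 ± 6.8 TPM in WT OC, against 467 ± 105 TPM in WT OB. Its null means were 27.5 ± 9.87 TPM in BMM, 27.9 ± 5.78 TPM in OC and 357 ± 269 TPM in OB. The ratio of Mt1 to Mt2 in TPM was 15.2 ± 2.8 in WT BMM and 16.4 ± 2.12 in WT OC, against 5.99 ± 0.407 in WT OB, so Mt2 made up a larger part of the pair in osteoblasts. No library of WT OB (5.49 to 6.63) reached the lowest ratio of WT BMM, 12.7.

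**Figure D1:**
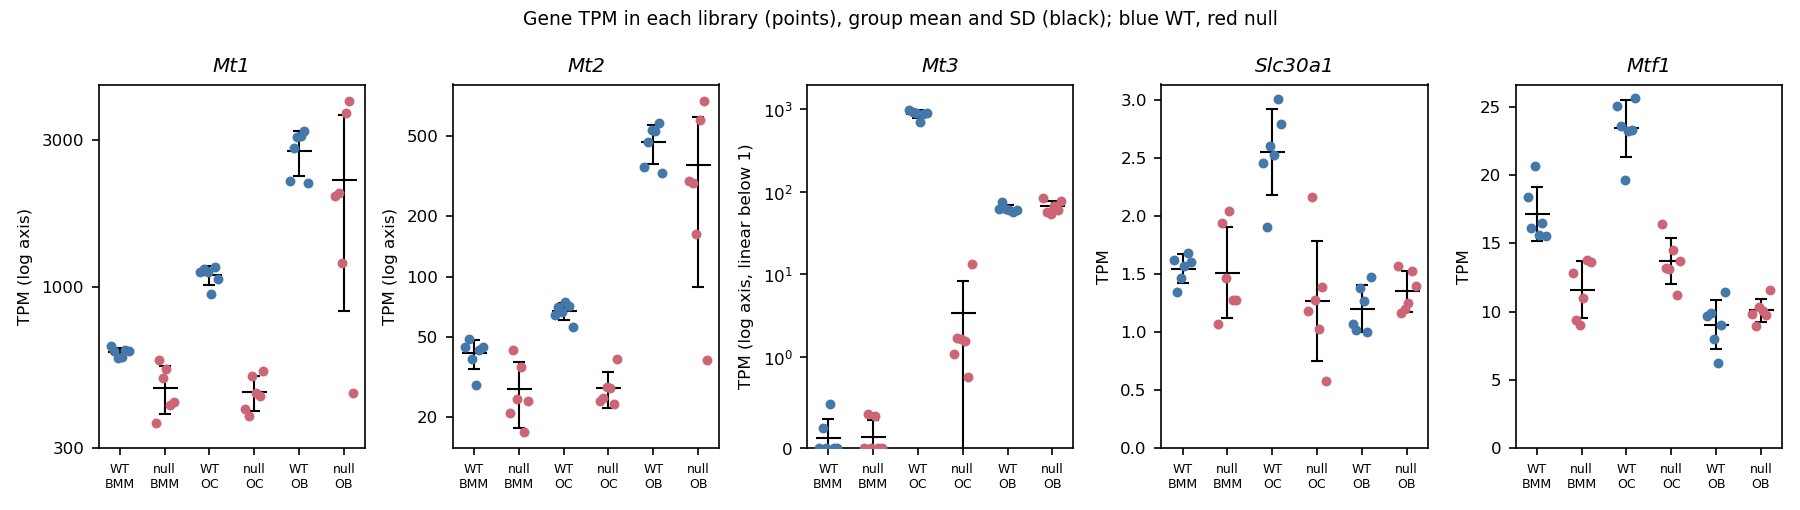
TPM of each gene in each library (points; blue WT, red null) with the group mean and SD in black, on a log axis for Mt1 and Mt2, a log axis that is linear below 1 for Mt3, and linear axes for Slc30a1 and Mtf1. Mt1 and Mt2 are highest in osteoblasts and spread widely in null OB, and Mt3 sits near 880 TPM in WT OC against 3.36 TPM in null OC.

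Against WT BMM, WT OB had more Mt1 and Mt2 in the test of all 36 libraries. Mt1, Mt2 and Mtf1 passed an adjusted p of 0.05 there (edgeR quasi-likelihood test, Benjamini-Hochberg over all genes tested), where 76.8% of all 14268 genes passed. Mt1 rose by 2.13 on the log2 scale (SE 0.28, adjusted p 2.88e-08) and Mt2 by 3.46 (SE 0.39, adjusted p 9.4e-10). In bulk libraries a larger share of cells that make a transcript and more transcript per cell cannot be told apart. Between WT OC and WT BMM the log2 differences were 0.71 for Mt1 and 0.58 for Mt2, given without a test because that contrast served to choose Mt3.

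In the RANK-L cultures both Mt1 and Mt2 were lower in null cells. In CPM, Mt1 ran from 198 (median 253) to 268 in WT OC and from 93.7 (median 113) to 144 in null OC. Mt2 ran from 12.8 (median 16.0) to 17.3 CPM in WT OC and from 5.88 (median 7.02) to 11.0 CPM in null OC. For both genes every null library was below every WT library. The share of all genes separated in this way was not counted. All 4 genes tested there passed the threshold, 3 lower and 1 higher, where 65.6% of 12121 genes passed, 33.1% lower and 32.4% higher. Mt1 fell by 1.06 on the log2 scale (SE 0.10, adjusted p 1.19e-07, edgeR) and Mt2 fell by 1.07 (SE 0.14, adjusted p 5.5e-06), to 0.48 and 0.477 of the WT level. Osteoclast markers were lower and macrophage markers higher in the same libraries, by the sums given above, and their part in these differences was not tested.

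In BMM the same 2 genes were lower on average in null cells but did not pass in the counts. Mt1 ran from 139 (median 149) to 164 CPM in WT and from 87.9 (median 126) to 169 CPM in null, and Mt2 from 7.31 (median 11.0) to 12.4 CPM in WT and from 4.52 (median 6.86) to 13.2 CPM in null. The highest null library, replicate 2, lay above all WT libraries for both. Of 4 genes tested in BMM 1 passed, where 52.3% of 11925 genes passed, 27.0% higher and 25.4% lower. The log2 difference was -0.22 for Mt1 (SE 0.13, adjusted p 0.171, edgeR) and -0.42 for Mt2 (SE 0.23, adjusted p 0.133). The calls turned on the scaling and on 1 library. With trends in transcript length and GC content taken out of each library by an offset, the differences were -0.47 (adjusted p 5.29e-05) and -0.66 (adjusted p 0.00604), in log2(TPM + 1) with limma they were -0.40 (adjusted p 0.0035) and -0.62 (adjusted p 0.015), and without null BMM replicate 2 they were -0.31 (adjusted p 0.0366) and -0.63 (adjusted p 0.0143).

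The difference of Mt1 between OC and BMM was not the same in the genotypes. Among the null cells, OC and BMM differed by -0.12 for Mt1 (SE 0.12, 95% interval -0.36 to 0.12, adjusted p 0.565) and by -0.06 for Mt2 (SE 0.20, 95% interval -0.45 to 0.33, adjusted p 0.872). The difference between the genotypes in that response was -0.83 for Mt1 (SE 0.17, adjusted p 0.000238) and -0.64 for Mt2 (SE 0.28, adjusted p 0.0559) on the log2 scale. In that test 2 of the 4 genes tested passed, Mt1 and Slc30a1, where 51.4% of 12661 genes passed. When all 36 libraries shared one estimate of the spread, the value for Mt1 was -0.84 with an adjusted p of 0.0717. Mt2 passed with DESeq2 (-0.64, adjusted p 0.0453), with limma-voom (-0.69, adjusted p 0.0203) and in log2 TPM (-0.63, adjusted p 0.0276).

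In osteoblasts no difference in Mt1 or Mt2 between the genotypes was found, and the null libraries were far more spread than the WT ones. Of 5 genes tested in OB 0 passed in edgeR and 0 had an unadjusted p under 0.05, where 32.5% of 13607 genes passed, 15.5% higher and 16.9% lower. DESeq2 passed 0 with 1 at an unadjusted p under 0.05, and limma-voom passed 0 with 2. The log2 difference was -0.49 for Mt1 (SE 0.42, 95% interval -1.32 to 0.34, adjusted p 0.416) and -0.56 for Mt2 (SE 0.53, 95% interval -1.6 to 0.47, adjusted p 0.456). The coefficient of variation of Mt1 in CPM was 62.5% in null OB and 17.4% in WT OB, and that of Mt2 was 75.2% and 23.1%. Within null OB, replicate 5 was the highest and replicate 6 the lowest for both genes, with a ratio of 9.22 for Mt1 and 20.2 for Mt2. Mt3 did not follow them there, with 12.7 CPM in replicate 5 and 15.7 CPM in replicate 6.

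Genes that hypoxia induces were ordered in the same way over the null OB libraries. The summed level of 10 such genes was 6470 CPM in replicate 5 and 1090 CPM in replicate 6 of null OB, and between 2530 and 5170 CPM in the other 4 libraries. In WT OB the sum ran from 3270 to 5000 CPM. There Mt1 and Mt2 were again highest in replicate 5 and lowest in replicate 6, with ratios of 1.5 and 1.81. The listed hypoxia genes did not share that order in WT OB, where each was lowest in replicate 1. Of the 9 listed genes with a mean of at least 1 CPM in null OB, 8 were highest in replicate 5 and lowest in replicate 6, among them the mitophagy receptor gene Bnip3, the oxygen sensor Egln3, the stress gene Ndrg1 and the glucose transporter Slc2a1. The same held for 9.36% of 12923 genes at that level. Of 7 glucocorticoid-induced genes 4 were ordered in that way. The part of oxygen, of cell density or of the medium in these differences was not tested.

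**Figure D2:**
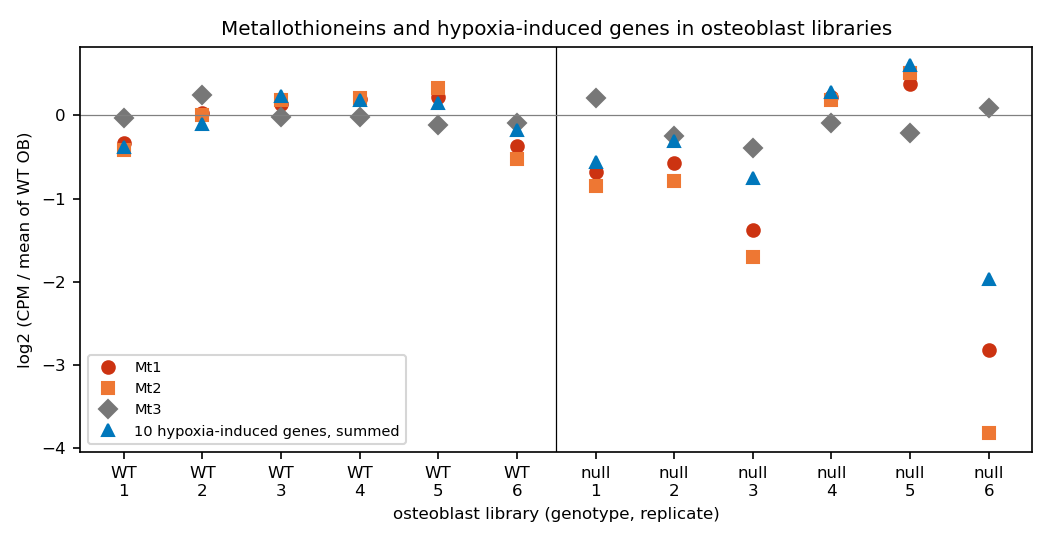
CPM of Mt1, Mt2, Mt3 and the sum of 10 hypoxia-induced genes in each osteoblast library, as log2 of the ratio to the WT OB mean (vertical axis), by genotype and replicate (horizontal axis). Mt1, Mt2 and the hypoxia sum are highest in null replicate 5 and lowest in null replicate 6, where Mt2 is at 8.17 CPM, and Mt3 stays within 11.2 to 17.4 CPM.

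By the pattern over all 36 libraries, the gene most like Mt1 was Mt2. The Pearson correlation of log2 CPM was 0.979, ahead of the translation factor gene Eif1b (0.959), the lipid-droplet gene Hilpda (0.947), the glycolytic enzyme gene Gapdh (0.937) and Ndrg1 (0.930), out of 12631 genes. These are descriptions over libraries that share their cell types.

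Mt3 had a pattern of its own within the cluster. It was at 0 to 2 counts in each of the 12 BMM libraries, which is under the floor of 3 counts used for detection. In WT OC it had 2599 to 4446 counts and averaged 196 ± 27.6 CPM, from 145 (median 199) to 221. In null OC the 6 libraries had 3, 6, 6, 8, 10 and 48 counts, and the mean was 0.884 ± 1.33 CPM. WT OB held 14.7 ± 1.36 CPM and null OB 13.8 ± 2.2 CPM. Every WT OC library thus stood above every osteoblast library, and every osteoblast library above every null OC library.

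In TPM, Mt3 averaged 880 ± 94.7 in WT OC against 1094 ± 76.7 for Mt1, and it made up 43.0 ± 1.69% of the summed Mt1, Mt2 and Mt3 TPM of those libraries. Its share was 0.623 ± 0.822% in null OC, 1.95 ± 0.381% in WT OB and 4.36 ± 4.65% in null OB. In both null groups the SD thus exceeded the mean. Across the null OB libraries Mt1, which enters the share, ran from 455 to 4034 TPM. The sum of the 3 genes was 2041 ± 163 TPM in WT OC and 487 ± 68.3 TPM in null OC. WT OC were at least 1240-fold higher in Mt3 than WT BMM, when the BMM libraries were set to 3 counts each. Mean CPM in WT OC was 222 times that of null OC, and 576 times without null OC replicate 6, whose 48 counts set the null mean.

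Within the null cells Mt3 was higher in OC than in BMM, at a far lower level than in WT OC. With null BMM set to 3 counts each, null OC were at least 5.4-fold higher, and at least 2.08-fold higher without null OC replicate 6. No test is given, since Mt3 entered the fit of these groups only through the WT OC libraries it was selected on. Of the 4 other genes 0 passed between null OC and null BMM in edgeR, DESeq2 or limma-voom, where 12.9% of 12661 genes passed in edgeR. Mtf1 had an unadjusted p of 0.0441 in edgeR, and it passed after the correction for length and GC content (0.33, adjusted p 0.0211). Null OC replicate 6 had 3.6 CPM of Mt3 against at most 0.436 CPM in the other 5. It also had the highest level of 5 of the 10 osteoclast markers in its group, with Ctsk, the bone-resorbing protease, at 221 CPM against at most 62.7, the acid phosphatase Acp5 at 164 against at most 97.3, and the fusion genes Ocstamp at 11.3 against at most 1.88 and Dcstamp at 6.83 against at most 2.05. Other markers were not highest there, with Nfatc1 at 53 CPM against up to 90.5, Mmp9 at 259 against up to 320, Atp6v0d2 at 42.5 against up to 50.6 and Itgb3 at 11.6 against up to 15. Osteoblast markers summed to 267 CPM in that library, where the median of the group was 87.7. It was also the library of lowest depth, with 14118972 counts. How many of all genes were highest in it was not counted.

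Osteoblast cultures expressed Mt3 well above BMM. WT OB were at least 93.1-fold higher than WT BMM set to 3 counts. The genotypes did not differ detectably in OB (log2 difference -0.10, SE 0.11, 95% interval -0.31 to 0.11, adjusted p 0.508). Osteoclast markers were present in the same libraries. As a percentage of its WT OC mean, Mt3 stood at 7.51% in WT OB, within the range of the 10 osteoclast markers, 3.14% to 22.0% with a median of 12.7%. In null OB Mt3 stood at 7.03%, and the markers ranged from 4.62% to 37.3% with a median of 17.8%. For null OC the corresponding values were 0.45% for Mt3 and 0 to 9.97%, median 1.08%, for the markers. Whether Mt3 in osteoblast cultures came from osteoclasts in the dish or from osteoblasts was not tested.

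**Figure D3:**
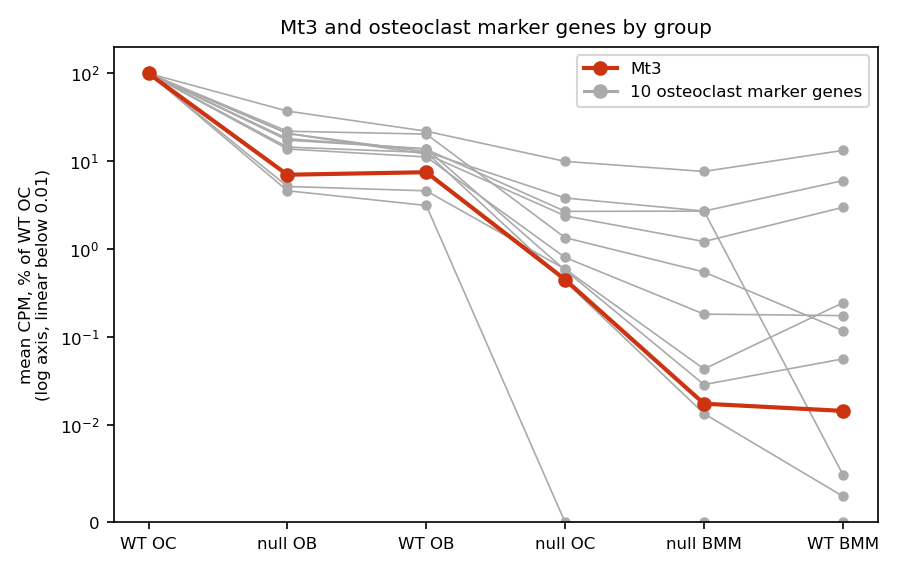
Mean CPM of Mt3 (red) and of 10 osteoclast marker genes (grey) in each group as a percentage of the WT OC mean, on a log axis that is linear below 0.01%. Mt3 lies among the markers in osteoblasts, at 7.51% in WT OB and 7.03% in null OB, and near the low end in null OC, at 0.45%.

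The 5 genes whose log2 CPM followed Mt3 most closely over the 36 libraries were Ocstamp (Pearson correlation 0.987), the osteoclast-associated receptor gene Oscar (0.983), Ctsk (0.983), the receptor kinase gene Mst1r (0.983) and Apbb1 (0.975). With Spearman's coefficient the closest were Ctsk (0.933), Acp5 (0.932) and Oscar (0.931). Since Mt3 was picked for its osteoclast level, these correlations describe the choice and add no support to it.

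Slc30a1, which carries zinc out of the cell through the plasma membrane, was expressed at a low level everywhere. It averaged 1.55 ± 0.122 TPM in WT BMM and 2.55 ± 0.373 TPM in WT OC, against 1.20 ± 0.202 TPM in WT OB, and 1.51 ± 0.393, 1.27 ± 0.52 and 1.35 ± 0.173 TPM in the null counterparts. WT OC was the highest group, and its range did not overlap that of WT BMM, while each of the lower groups overlapped its neighbour. Such separation was not counted over all genes. Behind the values lay 31 to 199 counts per library.

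The exporter was lower in null OC. It ran from 6.60 (median 8.46) to 10.2 CPM in WT OC and from 2.33 (median 4.72) to 7.28 CPM in null OC, with null replicate 2 alone reaching into the WT range. Its level fell by 0.84 on the log2 scale (SE 0.20, adjusted p 0.00165, edgeR), to 0.56 of WT. Leaving out any 1 of the 12 libraries gave between -1.01 and -0.71. In BMM the difference was 0.14 (SE 0.18, 95% interval -0.22 to 0.50, adjusted p 0.557) and in OB -0.02 (SE 0.14, 95% interval -0.28 to 0.25, adjusted p 0.945).

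The genotypes differed in the RANK-L response of Slc30a1 by -0.96 (SE 0.28, adjusted p 0.00551). Null OC and null BMM differed by -0.36 (SE 0.20, 95% interval -0.76 to 0.03, adjusted p 0.227), against a described 0.60 between the WT groups. The genotype effect in OB was above that in OC by 0.84 (SE 0.26, adjusted p 0.00709). Slc30a1 was the only 1 of 4 genes tested to pass there, where 55.2% of 14268 genes passed, and after the correction for length and GC content the value was 0.58 (adjusted p 0.0618). Between OB and BMM the genotype effect differed for 0 of the same 4 genes in edgeR, with 0 at an unadjusted p under 0.05 and 0 in DESeq2 and limma-voom, where 45.9% of all genes passed. Mt3 is not counted there, since it was under the detection floor in BMM. The genes closest to Slc30a1 over the libraries were the ribosome-assembly gene Gtpbp4 (Pearson correlation 0.836), Cdc5l (0.798) and the NF-kB subunit gene Rel (0.792), lower values than those of Mt1 or Mt3.

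The transcription factor gene Mtf1 gave opposite directions in counts and in TPM in BMM and OC. By counts it was higher in null cells, with 27.3 ± 1.78 CPM in null BMM against 22.8 ± 2.05 in WT BMM and 30.6 ± 3.57 CPM in null OC against 25.1 ± 1.69 in WT OC. The log2 differences were 0.27 in BMM (SE 0.08, adjusted p 0.0101, edgeR), 0.29 in OC (SE 0.09, adjusted p 0.00714) and 0.19 in OB (SE 0.09, adjusted p 0.121). By TPM it was lower in null BMM and OC, with 11.6 ± 2.09 TPM against 17.1 ± 2.0 in BMM and 13.7 ± 1.7 TPM against 23.4 ± 2.1 in OC. In OB its mean TPM was 10.1 in null against 9.05 in WT, the same direction as the counts. On the log2(TPM + 1) scale the differences were -0.53 in BMM (adjusted p 0.00139, limma), -0.73 in OC (adjusted p 3.69e-06) and 0.16 in OB (adjusted p 0.305). An edgeR fit with an offset for the average transcript length gave -0.41 in BMM (adjusted p 0.00354), -0.56 in OC (adjusted p 0.000273) and -0.0063 in OB (adjusted p 0.975).

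Grouped by length, the transcripts of Mtf1 differed in opposite ways in BMM and OC. This split was made after the opposite directions in counts and TPM were seen. Its p-values therefore describe that pattern and add no independent support to it. The full-length coding transcripts Mtf1-201 (7631 bases) and Mtf1-202 (7554 bases) together averaged 4.19 ± 0.465 TPM in null BMM against 3.33 ± 0.562 in WT BMM (exact permutation test, 2-sided, adjusted p 0.0208 over 6 tests). They averaged 4.84 ± 0.526 TPM in null OC against 3.78 ± 0.475 in WT OC (exact permutation, adjusted p 0.013), and 3.94 ± 0.287 TPM in null OB against 2.95 ± 0.421 in WT OB (exact permutation, adjusted p 0.00433). The short transcripts at the 5′ end of the gene, Mtf1-203 (636 bases), the retained-intron transcript Mtf1-204 (781 bases) and Mtf1-205 (750 bases), summed to 7.42 ± 1.84 TPM in null BMM against 13.8 ± 2.46 in WT BMM and to 8.87 ± 1.87 TPM in null OC against 19.6 ± 2.07 in WT OC (exact permutation, adjusted p 0.00433 for each). In OB the short transcripts were at 6.15 ± 1.05 TPM in null and 6.11 ± 1.46 in WT (exact permutation, adjusted p 0.952).

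In TPM, the sum of the full-length transcripts was thus higher in null cells of all 3 kinds. The sum of the short ones was lower in null BMM and OC. In OB the TPM scale also shifted the median of all genes by 0.15 (log2). By counts Mtf1 did not pass there (0.19, adjusted p 0.121, edgeR). In OC the full-length pair split, with Mtf1-201 at 2.64 TPM in null against 1.11 in WT and Mtf1-202 at 2.20 TPM in null against 2.67 in WT. Few counts carry the short transcripts: Mtf1-204 had a mean of 71.9 counts in WT BMM and 43.7 in null BMM, and 100.5 in WT OC against 53.4 in null OC. They weigh more in TPM because of their length. The split of counts between transcripts is an estimate, the antisense gene 1110065P20Rik shares 7.77% of the 31-base words of Mtf1, and the sources used here do not give the strand setting, so these values are uncertain. Mt1, Mt3 and Slc30a1 share 0 such words with other genes and Mt2 shares 0.624%.

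**Figure D4:**
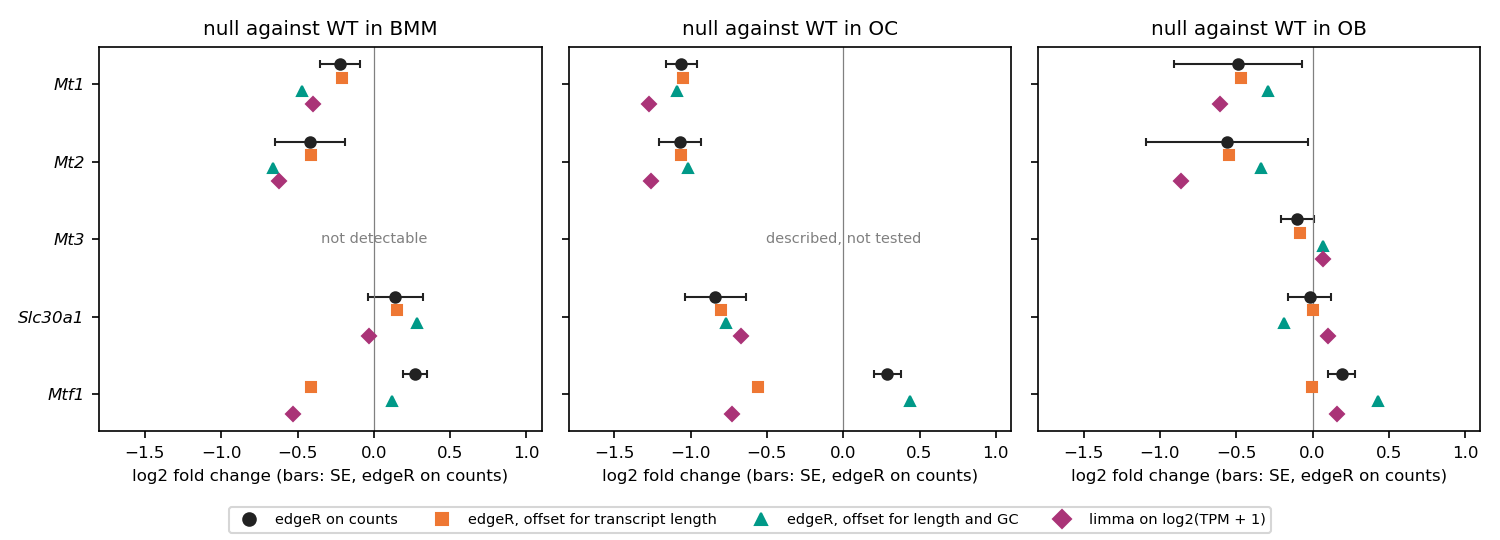
Log2 fold change of each gene in null against WT (horizontal axis) in BMM, OC and OB, from edgeR on counts (with SE bars), edgeR with an offset for transcript length, edgeR with an offset for length and GC content, and limma on log2(TPM + 1). Mt1, Mt2 and Slc30a1 lie below 0 in OC in all 4, whereas Mtf1 in OC lies at 0.29 by counts and at -0.73 in TPM.

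Against WT BMM, WT OB had less Mtf1 (log2 difference -0.39, SE 0.08, adjusted p 8.41e-05) and a Slc30a1 level at the edge of the threshold (-0.40, SE 0.19, adjusted p 0.0505, edgeR). Slc30a1 passed there in limma-voom (-0.42, adjusted p 0.0126), with a minimum mean of 10 counts (adjusted p 0.047) and in 5 of 12 fits that left out 1 library, those without WT BMM replicate 2 or 3 or WT OB replicate 3, 4 or 6. Null OC against null BMM gave 0.17 for Mtf1 (SE 0.08, 95% interval 0.01 to 0.33, adjusted p 0.156), and the genotype difference in that response was 0.03 (SE 0.11, adjusted p 0.828).

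Zinc also crosses membranes through the exporters of the Slc30a family, which load vesicles or empty the cell, and the importers of the Slc39a family, which bring zinc into the cytosol. Of the 10 exporters 6 were tested in each genotype comparison. In BMM 0 passed in edgeR, DESeq2 or limma-voom, and 0 had an unadjusted p under 0.05 in any of them. In OB 0 passed in edgeR, with 1 at an unadjusted p under 0.05, Slc30a7 (log2 difference 0.20, SE 0.07, adjusted p 0.051), which DESeq2 and limma-voom called. In OC 1 was higher and 2 were lower, against 32.4% and 33.1% of all genes. Slc30a5, which loads zinc into the secretory pathway, was higher in null OC (log2 difference 0.53, SE 0.20, adjusted p 0.0298). That call held in 6 of 10 alternatives, and was lost in log2 TPM (0.36, adjusted p 0.128), without a filter, with the replicate block and in the fit of all libraries. It held in 7 of 12 fits that left out 1 library, and was lost without WT OC replicate 3 or 5 or null OC replicate 1, 3 or 4 (0.49 to 0.52, adjusted p up to 0.0607). Slc30a6, its partner, was lower by -0.40 (SE 0.07, adjusted p 0.000181). The median log2 difference of the 6 exporters was -0.02 in BMM, -0.08 in OC and 0.01 in OB, beside 0.02, -0.03 and 0.00 over all genes.

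Importers passed in both directions. Of 13 tested in BMM 4 were higher and 5 lower in null cells, where 27.0% and 25.4% of all genes were. Of 12 tested in OC 4 were higher and 4 lower, beside 32.4% and 33.1% of all genes, and of 13 tested in OB 3 were higher and 1 lower, beside 15.5% and 16.9%. The highest fold belonged to Slc39a4, the importer that takes up dietary zinc in the gut. It averaged 45.9 ± 3.62 CPM in null BMM and 2.59 ± 0.848 in WT BMM, and 38.5 ± 9.3 CPM in null OC and 2.62 ± 0.30 in WT OC. Null and WT libraries did not overlap, a separation not counted over all genes. The log2 differences were 4.15 (SE 0.17, adjusted p 1.12e-11) and 3.89 (SE 0.16, adjusted p 2.24e-12). In osteoblasts it went the other way, with 8.70 ± 1.03 CPM in null and 11.2 ± 1.55 in WT (log2 difference -0.37, SE 0.11, adjusted p 0.0187). That call held in 7 of 10 alternatives, and was lost after the correction for length and GC content, in the fit of all libraries and in log2 TPM, where the value was -0.16 (adjusted p 0.222).

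Slc39a13, an importer of the secretory pathway needed for bone and connective tissue, was in WT cells at 30.1 ± 1.71 CPM in BMM, 188 ± 9.36 CPM in OC and 206 ± 15.0 CPM in OB. In null cells it was at 67.5 ± 6.69 CPM in BMM, 73.1 ± 14.5 in OC and 242 ± 13.3 in OB. It was thus higher in null BMM (log2 difference 1.17, SE 0.08, adjusted p 3.16e-09), lower in null OC (-1.36, SE 0.10, adjusted p 2.72e-09) and slightly higher in null OB (0.23, SE 0.06, adjusted p 0.00736). Slc39a1, which imports zinc at the plasma membrane, was likewise higher in null BMM and lower in null OC. It had 256 ± 23.4 CPM in null against 134 ± 40.3 in WT BMM (log2 difference 0.94, SE 0.17, adjusted p 0.000277) and 243 ± 50.9 CPM in null against 479 ± 27.4 in WT OC (-0.97, SE 0.11, adjusted p 8.32e-07).

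Slc39a8, an importer of zinc and manganese, ran the opposite way with RANK-L. It stood at 36.3 ± 1.94 CPM in WT BMM and 9.95 ± 0.456 in WT OC, and at 27.3 ± 5.73 CPM in null BMM and 32.7 ± 2.7 in null OC, so that null OC exceeded WT OC by 1.72 (SE 0.08, adjusted p 1.09e-11). Of 13 importers tested between null OC and null BMM 2 passed in edgeR, a share near the 12.9% of all 12661 genes. They were Slc39a11 (0.29, SE 0.06, adjusted p 0.00446) and Slc39a6 (0.24, SE 0.08, adjusted p 0.0412). DESeq2 called 3, with Slc39a2 added, and limma-voom called 3, Slc39a11, Slc39a2 and Slc39a8. Of 6 exporters 0 passed in edgeR, DESeq2 or limma-voom, with 2 at an unadjusted p under 0.05 in edgeR. The call of Slc39a6 held in 3 of 10 alternatives and in 4 of 12 fits that left out 1 library. Slc39a9 was lower in null BMM by -0.65 (SE 0.08, adjusted p 4.64e-06) and higher in null OB by 0.40 (SE 0.08, adjusted p 0.00136), a call that the offset for length and GC content ended (0.23, adjusted p 0.0604).

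**Figure D5:**
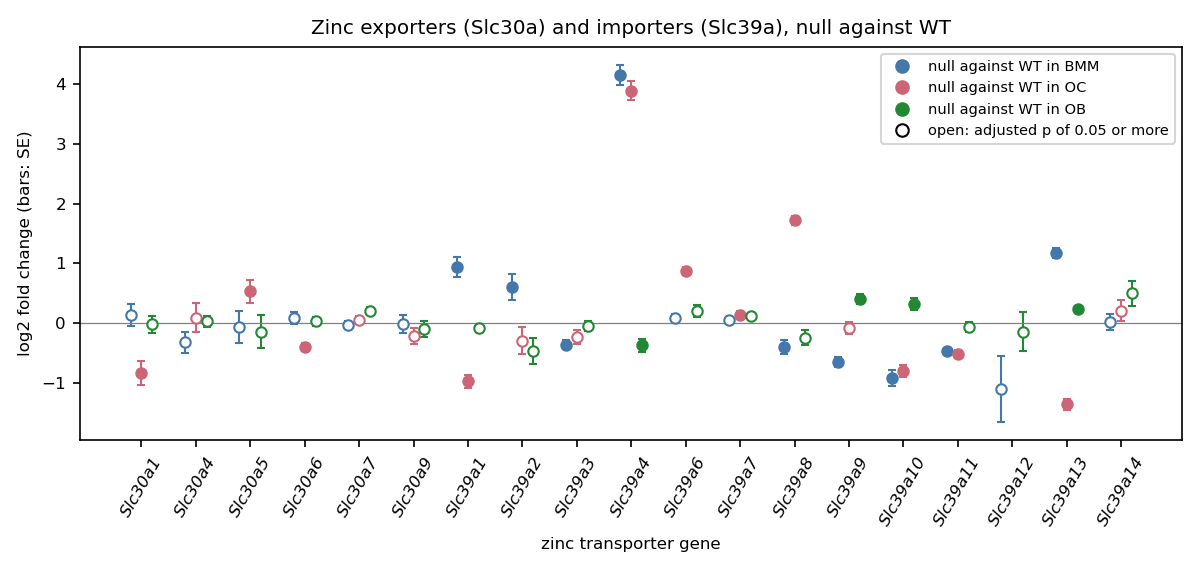
Log2 fold change with SE of each tested zinc exporter (Slc30a) and importer (Slc39a), null against WT, in BMM (blue), OC (red) and OB (green), with open points for an adjusted p of 0.05 or more. Slc39a4 stands apart in BMM and OC, at 4.15 and 3.89, and Slc39a13 is above 0 in BMM and below 0 in OC.

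Copper is bound by metallothioneins too. Of 9 copper-handling genes tested in BMM 6 were higher in null cells and 1 lower, where 27.0% of all genes were higher and 25.4% lower. Their median log2 difference was 0.77 beside 0.02 over all genes. Among them were the copper transporter Slc31a2 (1.95, SE 0.06, adjusted p 7.68e-13), the plasma copper protein gene Cp (3.15, SE 0.25, adjusted p 3.84e-08) and the superoxide dismutase gene Sod1 (1.02, SE 0.16, adjusted p 0.000104), with the copper pump Atp7a lower (-0.75, SE 0.10, adjusted p 1.2e-05). In OC 4 of 9 were higher and 3 lower (median 0.12), beside 32.4% and 33.1% of all genes, and in OB 1 was higher and 5 lower of 10 tested (median -0.18), beside 15.5% and 16.9%. Hypoxia-induced genes gave 4 higher and 3 lower of 9 in BMM, 3 higher and 4 lower of 10 in OC, and 0 of 9 in OB in edgeR, where 0 had an unadjusted p under 0.05 DESeq2 also called 0 and limma-voom called 1, Ankrd37. Glucocorticoid-induced genes gave 1 higher and 4 lower of 8 in BMM, 4 higher and 2 lower of 8 in OC, and 1 in each direction of 7 in OB. Over all genes 52.3% passed in BMM, 65.6% in OC and 32.5% in OB, so the hypoxia and glucocorticoid counts in OC were near the rate of all genes.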

How the data were processed

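RNA-seq of 36 mouse libraries was read from tables of transcripts. The deposited values were estimated counts and TPM per transcript, per the file headers, together with transcript lengths. The submitters' processing notes name kallisto, DESeq2 and the build GRCh38, without tool versions; the identifiers in the files were mouse, and 97.5% of 88198 transcripts matched GENCODE M21 (GRCm38). Transcripts without a match, 0.63% to 0.97% of counts, were left out. Estimated counts deposited by the authors were summed per gene, rounded and scaled by TMM. Depth ran from 14118972 to 26347581 counts per library, and a floor of 3 counts covers counting error only. The strand setting is not given in the sources used here.

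Genes passing filterByExpr were tested with edgeR 4.0.16 (quasi-likelihood, robust; R 4.3.3), with Benjamini-Hochberg adjustment over all genes and a threshold of 0.05. The scripts were tested on simulated data. Intervals of 95% are the estimate plus and minus 1.96 SE. The genes and lists (osteoclast, macrophage, osteoblast, adipocyte and neutrophil markers, zinc exporters and importers, copper-handling, hypoxia-induced and glucocorticoid-induced genes) were chosen with earlier results of these data known. No test is given for Mt3 where it was chosen. None is given between null OC and null BMM, between WT OB and WT BMM, or for the genotype effect in OB against BMM. In those fits Mt3 entered only through the groups in which it was high. In each comparison the zinc transporters named were the 2 higher and 2 lower with the smallest p and a mean of at least 1 CPM, others being named after their values were seen, and the 5 genes most correlated with Mt1 and Mt3 were named, with fewer for Slc30a1. Alternatives were RLE scaling, other filters, DESeq2 1.42.0, limma-voom (limma 3.58.1), a replicate block, an offset for transcript length, a fit of all libraries and leaving out each library. Added after seeing the data were an offset for length and GC content (lowess span 0.3), limma on log2(TPM + 1) for genes with a mean of at least 1 TPM, and Mtf1 transcripts split by length with an exact permutation test.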

Additional observations from a re-analysis of the deposited data

Results flagged for a closer look

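Among 28 groups of 6 libraries examined, 3 had a library far from the rest by Dixon's criterion, and chance alone marks about 1 group in 20. All 3 concern Mt3. WT OC replicate 4 had 145 CPM, where the nearest library had 196 CPM. Null OC replicate 6 had 3.6 CPM, where the nearest had 0.436 CPM. WT OB replicate 2 had 17.4 CPM, where the nearest had 14.6 CPM.

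The difference between OC and BMM was not the same in WT and null cells for 9 genes among the metallothioneins, Mtf1 and the zinc transporters, by an interaction term in edgeR (log2 value for null minus WT, with its adjusted p), where 51.4% of all genes passed. Of the 4 genes Mt1, Mt2, Slc30a1 and Mtf1 2 passed. Of 6 exporters tested, Slc30a1 among them, 2 passed, and of 13 importers 6 passed. These counts were near or below the rate of all genes. Metallothionein Mt1 gave -0.83 (0.000238) and the exporters Slc30a1 and Slc30a6 gave -0.96 (0.00551) and -0.46 (0.00248). Among importers the values were 2.14 for Slc39a8 (1.11e-12), 0.80 for Slc39a6 (5.21e-07), -2.52 for Slc39a13 (2.97e-15), -1.90 for Slc39a1 (3.67e-08), 0.58 for Slc39a9 (0.000596) and -0.89 for Slc39a2 (0.0257). Osteoclast markers moved the same way as Mt1, Slc30a1 and Slc39a13 in these libraries, with sums of 424 to 773 CPM in null OC and 30400 to 32600 CPM in WT OC, and their part was not tested.

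The difference between null and WT in osteoblasts exceeded that in BMM for Slc30a7 by 0.25 (adjusted p 0.0447, edgeR), a call that held in 5 of 9 alternatives and 15 of 24 fits that left out 1 library and turned to -0.22 after the correction for length and GC content. Slc30a7 was the only 1 of 6 exporters to pass. Of 13 importers tested 4 were above and 4 below, where 45.9% of all 14268 genes passed. Only the 2 with the smallest p in each direction are named. Among importers the osteoblast difference exceeded that in BMM for Slc39a9 by 1.07 (1.15e-08) and for Slc39a10 by 1.26 (1.25e-07). It was below that in BMM for Slc39a4, by -4.50 (5.76e-19), and for Slc39a13, by -0.93 (2.23e-08). Compared with OC, the genotype difference in osteoblasts was above by 0.84 for Slc30a1 (adjusted p 0.00709), 0.45 for Slc30a6 (0.00077), 1.60 for Slc39a13 (6.51e-15) and 1.13 for Slc39a10 (3.84e-07). It was below by -4.24 for Slc39a4 (6.27e-19) and -1.95 for Slc39a8 (3.86e-13). Against OC 2 of 6 exporters passed, and of 13 importers 5 were above and 3 below, where 55.2% of all 14268 genes passed. Again only the 2 importers with the smallest p in each direction are named.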

How the results depend on the processing

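Of 2870 values recomputed under another setting, 222 came from settings chosen after seeing the data. In all, 2726 were rated unchanged. For a test this means the same direction and side of the threshold, and for an untested value the same sign. For a count of genes it means a change within a set factor. Of the rest, 25 passed newly, 44 no longer passed, 42 turned sign and 33 counts moved beyond that factor. The cause was not tested. Same-numbered libraries deviated together little (correlations -0.13 to 0.10). Of 6 WT BMM libraries 3 matched best with their own number in WT OC, and 0 or 1 did so in the other pairs of groups. The labels do not say whether the numbers pair libraries, and the main fits did not pair them. With the replicate block 5645 genes passed in BMM, against 6241 without it, and Mt1 in BMM gave -0.25. Mtf1 turned sign with the length offset (BMM -0.41, OC -0.56, OB -0.0063, RANK-L interaction -0.13) and in TPM (BMM -0.53, OC -0.73, interaction -0.20); with the length and GC offset it was 0.12 in BMM (adjusted p 0.336) and -0.0039 in WT OC against WT BMM, and leaving out 1 library gave -0.03 to 0.07 for the interaction. With the length and GC offset 2 of the 5 genes passed in BMM, 1 in OB and, Mt3 counted though void as a test, 2 in null OC against null BMM (limma-voom 0), and 2681 genes in all passed in OB against 4420; Mt3 in OB was 0.07 there and in TPM, and in null OC against null BMM Mt1 was 0.0033 and Mt2 0.09 (TPM 0.06, leaving out 1 library -0.20 to 0.15). In TPM 3 of the 5 passed in BMM, and without 1 library 1 to 3, with 3 without null BMM replicate 2. Slc30a1 was -0.03 in BMM in TPM; in OB it was 0.0043 with the length offset, 0.10 in TPM and -0.06 to 0.04 without 1 library. Limma-voom called 1013 genes in null OC against null BMM, where edgeR called 1628; without 1 library edgeR called 810 to 2143. The fit of all 36 libraries called 1 of the 5 for the RANK-L interaction. For the genotype effect in OB against BMM 1 of the 5 passed with the length offset and 1 in TPM, Mt3 counted though void as a test. The gene that passed was Mtf1 (0.41 and 0.69, with 0.25 for length and GC and -0.10 to 0.0068 without 1 library). Signs also turned there for Mt1 (0.13) and Mt2 (0.24) with length and GC, for Mt3 (0.07) and Slc30a1 (0.13) in TPM, and for Slc30a7 (-0.22) with length and GC; without 1 library Mt2 ran from -0.48 to 0.10 and Mt3 from -1.43 to 0.11. In OB against OC 2 passed with the length offset, 0 with length and GC (Slc30a1 0.58, adjusted p 0.0618) and 2 in TPM, with Mtf1 at 0.48 and 0.89; without 1 library 1 or 2 passed, 2 without null OB replicate 6. TPM shifted the median of all genes by -0.13 in BMM, -0.22 in OC and 0.15 in OB. The low counts of Slc30a1, 31 to 199 per library, and of Mt3 in BMM, 0 to 2, limit their precision.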
